A study of Bos taurus and Cervus elaphus with 24 samples.

Results

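Immediate early genes are transcribed within minutes of a stimulus, without new protein synthesis, from promoters kept ready by factors such as SRF and CREB under the control of MAP kinases. FOS and the JUN proteins pair through leucine zippers to form the AP-1 transcription factor, while EGR1 and the KLF proteins bind GC-rich promoters through zinc fingers. In blood cells they respond to activation, stress and handling of the cells, and feedback proteins such as the phosphatase DUSP1 end the response. The 10 genes described here are the AP-1 proteins FOS, JUN, JUNB and JUND, the bZIP factor ATF3, the zinc finger factors EGR1, KLF4 and KLF10, the MAP kinase phosphatase DUSP1 and the nuclear early response protein IER2. DUSP1 is thus not a transcription factor itself. They were taken by gene name from the non-control probes, which gave 20 of the 43653 probes and 10 of the 24368 gene names on the array.

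Blood RNA was compared between the dry period, which in dairy cows is the pause in milking before birth, and peak lactation. The 6 groups of 4 arrays were Holstein-Friesian cattle (HF), a high-yielding dairy breed, Polish Red cattle (PR), a local breed, and deer (Cervus elaphus), each in both states. Per the series text, each group's 4 animals were sampled both times, and blood went into tubes that stabilise RNA on collection. Each animal's RNA was labelled with Cy5 and set against a common Cy3 reference pooled from 20 cattle outside the groups, so a value is a log2 ratio to that pool. The labels give no age, herd, or time of day, and no treatment other than blood collection. The deer were measured on probes designed for cattle. The labels name the material as nuclear cells of peripheral blood, and all 5 leukocyte markers lay well above background on the arrays of every group. In this mixed blood sample, fewer cells of a type and less RNA per cell cannot be told apart.

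On 23 of the 24 arrays the median Cy5 intensity was 108 to 254, and 30836 to 39110 probes were well above background. The exception was the first PR dry replicate, whose median was 2036. It had 43635 probes over background and 696 uneven spots, where no other array had over 71, and a spike-in correlation of 0.331. HF lactation replicate 3 stood apart in the members themselves, as described below. The 2 HF slides holding animals 2 and 3 had spike-in correlations of 0.174 to 0.401 in the file headers. Each HF animal had both of its arrays on 1 slide, always with the dry sample at position 1 and the lactation sample at position 3 or 4. The SD of the log2 ratios on an array was 0.524 and 0.655 for deer lactation replicates 2 and 4. For the other deer arrays it was 0.804 to 0.847. Results that rest on PR dry replicate 1 or HF lactation replicate 3 are given with and without that array. Counts of probes made without adjustment over all probes use all arrays.

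The members differ in how many places along the transcript were measured. FOS, JUN, EGR1 and DUSP1 had 3 probes each, KLF4 and IER2 had 2, and JUNB, JUND, ATF3 and KLF10 had 1. No member spot was saturated or marked as uneven. The EGR1 probe A_73_P259551 was well above background on 6 of 16 cattle arrays and 5 of 8 deer arrays, and it was tested in no comparison of cattle alone. All other probes were above background on all arrays, except the KLF4 probe A_73_P282306 on 1 deer array. The following probes are shown because they carry the FOS, JUN, DUSP1 and IER2 results at the 5′ side of each gene, as 60 bases 5′ to 3′ from the deposited files, on the UMD 3.1 cattle assembly. The FOS probe lies at chr10:86885752-86885811 on the plus strand, the JUN probe at chr3:87841383-87841442 on the plus strand, and the IER2 probe at chr7:13544850-13544909 on the minus strand. The DUSP1 probe is 60 bases long but spans 488 bases of the genome, at chr20:4450120-4450607 on the minus strand. No gene model of that assembly was used here, so exon and UTR assignments are not given.
FOS A_73_P101011: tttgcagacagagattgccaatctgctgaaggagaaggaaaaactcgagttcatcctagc
JUN A_73_P101006: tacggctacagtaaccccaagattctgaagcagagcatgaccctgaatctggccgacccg
DUSP1 A_73_P107251: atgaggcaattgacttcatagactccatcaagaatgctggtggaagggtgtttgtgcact
IER2 A_73_P244360: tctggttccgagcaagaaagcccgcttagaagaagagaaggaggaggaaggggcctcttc

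The brightest probes of FOS, JUN and IER2 are the 3′-most of each gene's probes, and JUNB has only 1 probe. For each of these genes 30 bases are shown because the FOS, JUN and deer differences were measured there. Capitals mark ATTTA, the core of AU-rich elements that are known to make early response transcripts short-lived, or AATAAA, the polyadenylation signal. The probes lie at chr10:86887064-86887123 (FOS, plus strand), chr3:87842939-87842998 (JUN, plus strand), chr7:13851155-13851214 (JUNB, minus strand) and chr7:13543670-13543729 (IER2, minus strand). The first 30 bases of the ATF3 and KLF10 probes, at chr16:72820131-72820190 on the minus strand and chr14:63957110-63957169 on the plus strand, are shown because these genes carry a lactation and a breed difference.
FOS A_73_101038: acttgaatgaaaaATTTAagcattgtttgc
JUN A_73_P317791: gcactctgagtttaccatttgtAATAAAgt
JUNB A_73_120294: ggtttctaaaggATTTAttttaatttgtgt
IER2 A_73_114011: agaatcgccagataggaaAATAAAgaccaa
ATF3 A_73_100833: tctctggctactatctgtttaaattctgac
KLF10 A_73_118231: acatttttctctatattgggtatagatttc
As printed, ATTTA was in 2 of the 20 member probes and in 7.45% of all probes, and on either strand in 6 member probes and 15.1% of all. AATAAA was in 2 member probes and 9.35% of all as printed, and on either strand in 5 and 12.5%. The JUNB, JUN and ATF3 probes also hold 1 of these motifs on the other strand. These are matches of letters within the probes, not sites.

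FOS, the inducible AP-1 subunit, lay between -0.89 and 0.25 in every cattle sample but 1 at its brightest probe. That probe had log2 ratios of -0.01, -0.08, -0.26 and -0.30 in HF dry replicates 1 to 4. In HF lactation the values were -0.20, 0.25, 5.77 and 0.17. Replicate 3 thus lay far above the other 3, which overlapped the dry samples. The raw Cy5 intensity of that spot was 42625, against 690, 1116 and 769 in the other HF lactation samples, and its Cy3 intensity was 246 against 296 to 407. Within HF animal 3 the ratio was 6.03 higher at peak lactation than in the dry period, 65.4-fold, and the other HF animals differed by -0.19, 0.33 and 0.47. FOS ranked first among the 19355 genes by this difference in animal 3.

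The same sample was high for most other members. EGR1, the zinc finger factor, reached 2.10 at its brightest probe in HF lactation replicate 3, where the other 3 lactation samples had -0.06, -0.20 and -0.13. JUNB, an AP-1 subunit with slower kinetics than FOS, reached 2.11 against -0.20, 0.06 and -0.10. DUSP1 reached 2.78, above -0.30, 1.12 and 0.48. JUN reached 1.82, above -0.11, 0.29 and 0.22. Within animal 3, the differences between states ranked JUNB 21st, EGR1 23rd, DUSP1 24th and JUN 25th of 19355 genes, with 2.29, 2.25, 2.18 and 2.16. ATF3 at 1.18, KLF4 at 1.03 and IER2 at 0.69 ranked 131st, 196th and 522nd. JUND, the AP-1 subunit known for steady expression, differed by -0.09 and KLF10, a TGF-beta-induced KLF factor, by -0.11. In all, 14 of the 20 member probes were more than 1 higher at peak lactation in animal 3, 4 in animal 2 and 0 in animals 1 and 4. These probes include several of a gene. Of the 19265 genes tested, 1.07% were more than 1 higher in animal 3. The reference channel of the 20 probes differed between the states by -0.345 to 0.276 in animal 3.

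**Figure D1:**
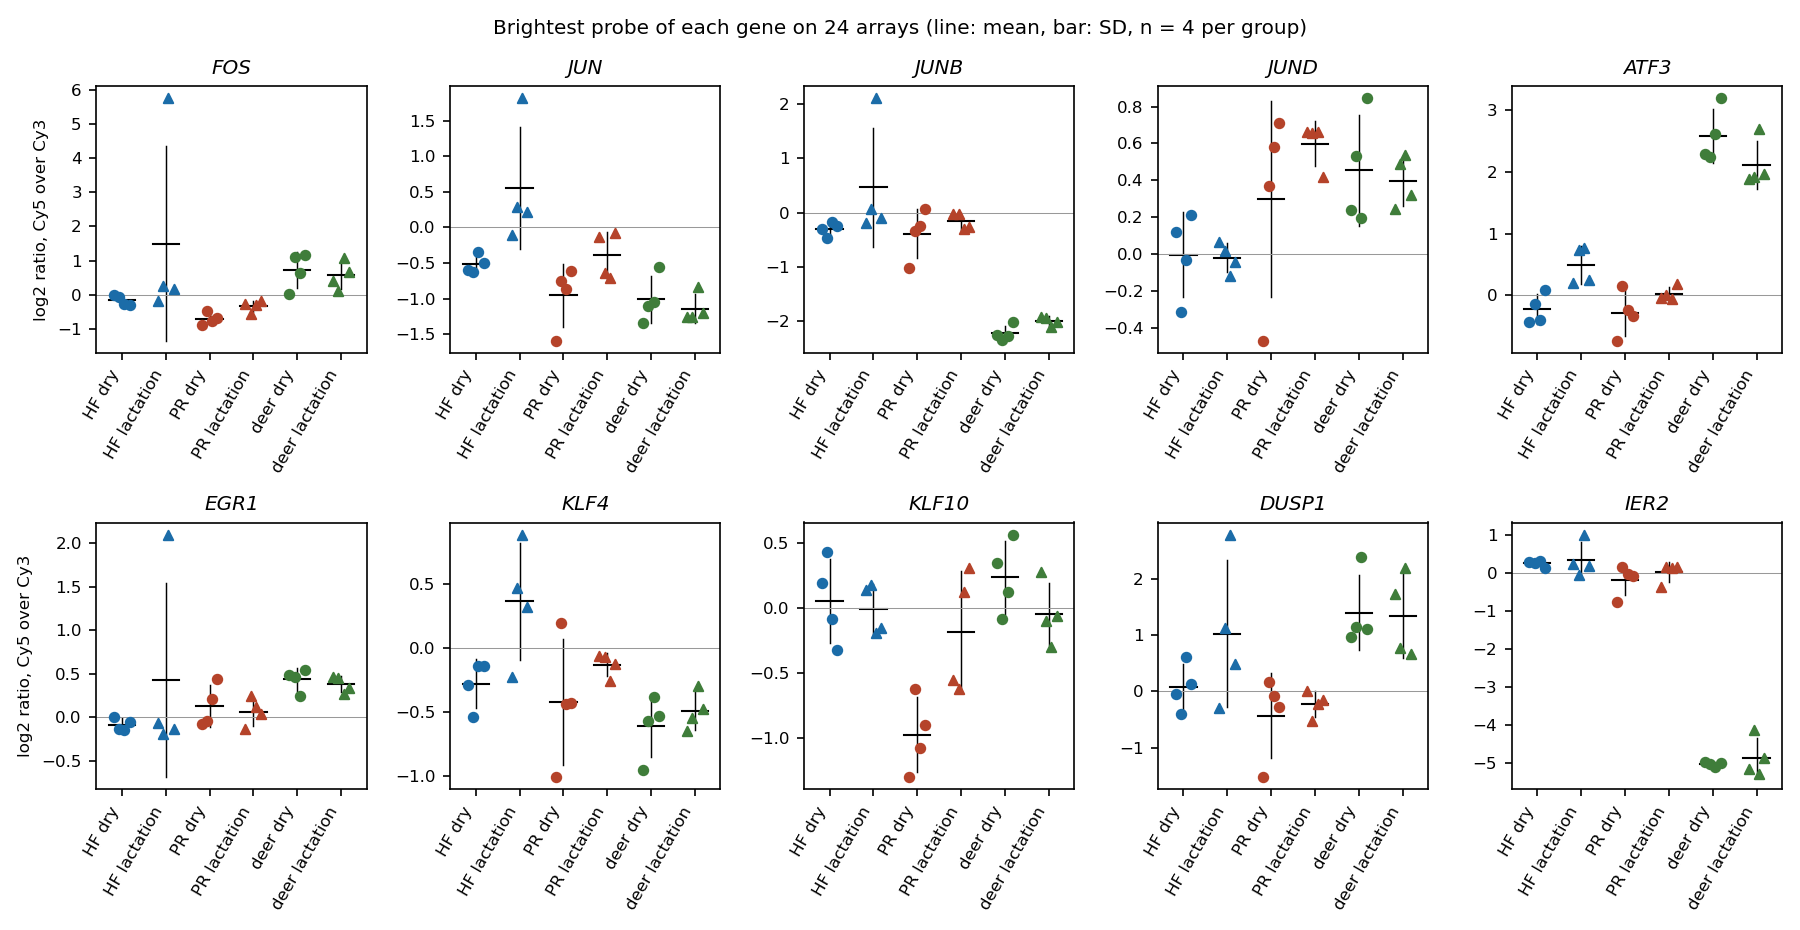
Log2 ratio of Cy5 over Cy3 (y axis) at the brightest probe of each of the 10 genes in 6 groups (x axis), with 1 point per array, circles for dry and triangles for lactation, and the mean with its SD over 4 arrays; the y scale differs between panels. HF lactation replicate 3 lies at 5.77 for FOS and 2.10 for EGR1, while the deer lie near -5 for IER2 and above 1.8 for ATF3.

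The probes of a gene did not agree on the size of this difference. Along EGR1, the difference in animal 3 was 2.25 at the middle probe and 5.24 at the 3′-most. The 5′-most EGR1 probe read 0.86, but it was not well above background in the dry sample, at a Cy5 intensity of 62, so its difference is not measured on both sides. The raw Cy5 intensity of the last probe went from 295 in the dry sample to 17921. Along FOS it was 4.11, 5.73 and 6.03, and along DUSP1 1.42, 2.10 and 2.18. JUN had 1.96, 2.30 and 2.16, IER2 0.69 and 0.69 and KLF4 0.90 and 1.03. In these values the 3′-most probe was thus the highest in 4 of the 6 genes with several probes. The dim probes are pulled towards 0 by the offset of 50, and with the deposited log ratio, which has none, the FOS probes gave 6.46, 6.19 and 6.60 and the middle and 3′-most EGR1 probes 2.51 and 6.38. DUSP1 then gave 2.06, 2.16 and 2.24 and JUN 2.14, 2.38 and 2.24. KLF4 gave 1.49 and 1.20 and IER2 1.21 and 0.67, so the 5′ probe was then the higher in both. The 3 FOS probes and the 3 DUSP1 probes came close to each other on that scale, and these 2 EGR1 probes did not.

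**Figure D2:**
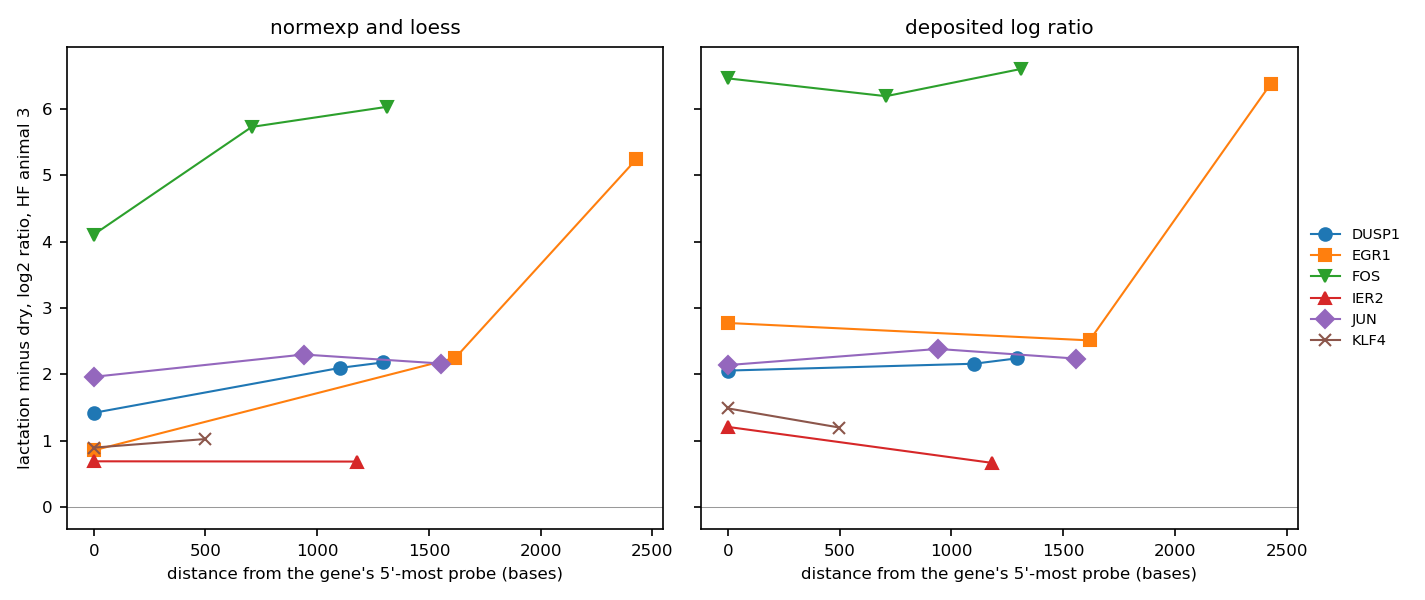
Difference between peak lactation and dry period in HF animal 3 (y axis, log2 ratio) against each probe's distance in bases from the gene's 5′-most probe (x axis), for the 6 genes with several probes, in the normexp and loess values (left) and the deposited log ratio (right). The FOS probes go from 4.11 to 6.03 on the left and from 6.46 to 6.60 on the right; the first EGR1 probe was not well above background in the dry sample.

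Some other early genes were high in the same sample. Among early response and feedback genes such as phosphatases and mRNA decay factors, 7 of 33 were more than 1 higher in animal 3, against 1.07% of the 19265 genes tested. These were DUSP2 at 2.57, BTG2 at 1.93, DUSP6 at 1.88, ZFP36 at 1.46, ID1 at 1.39, IER3 at 1.17 and NFKBIZ at 1.13. DUSP2 and DUSP6 are MAP kinase phosphatases, and ZFP36 is a protein that binds AU-rich elements and speeds RNA decay. Of 13 EGR, NR4A and KLF relatives, NR4A2 alone passed 1, at 1.03. None of the 16 AP-1 and bZIP partners and none of the 30 upstream kinases and SRF or CREB factors did, with highest values of 0.92 and 0.28. FOSB, the close relative of FOS, was at -0.21 in animal 3, EGR2 at -0.21 and NR4A1 at 0.11. These 3 were picked after their values were seen.

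Markers of other cells moved in the same sample. Behind FOS, the 3 highest differences in animal 3 were those of the neutrophil granule genes CATHL2 at 4.65, LTF at 4.43 and PGLYRP1 at 4.03. The mean of 11 neutrophil markers was -0.25, 0.77, 0.80 and -0.24 in HF lactation replicates 1 to 4 and -0.87, -1.10, -0.21 and -0.57 in HF dry, with all 11 above background throughout. Replicates 2 and 3 were about equally high in lactation, and the dry value was lower in animal 2. In animal 2, FOS differed by 0.33, and CATHL2, LTF and PGLYRP1 by 0.307, 0.285 and 0.273. The mean of 10 glucocorticoid response genes ranged from -0.15 to -0.04 in HF dry and from 0.25 to 0.57 in HF lactation, again highest in replicate 3. The mean of 9 heat shock genes lay between -0.12 and 0.07 in HF lactation, and between -0.18 and -0.03 in HF dry. The part of these in the FOS and EGR1 values was not tested.

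Over the HF group as a whole, 11 of 11 neutrophil markers were higher at peak lactation with a median difference of 1.09, and 0.82 without replicate 3, and 10 of 12 monocyte markers with a median of 0.58. Of the T, B and NK cell markers, 1 of 12, 0 of 8 and 0 of 8 were higher, with medians of -0.15, -0.46 and -0.42. Without replicate 3 these were 4 of 12, 0 of 8 and 0 of 8, with medians of -0.09, -0.40 and -0.26. In PR the neutrophil markers were higher in 11 of 11 with a median of 0.55, and in 9 of 11 with a median of 0.34 without PR dry replicate 1. They were higher in deer in 2 of 11 with a median of -0.42. None of these markers was called, and their part in the member values was not tested.

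**Figure D3:**
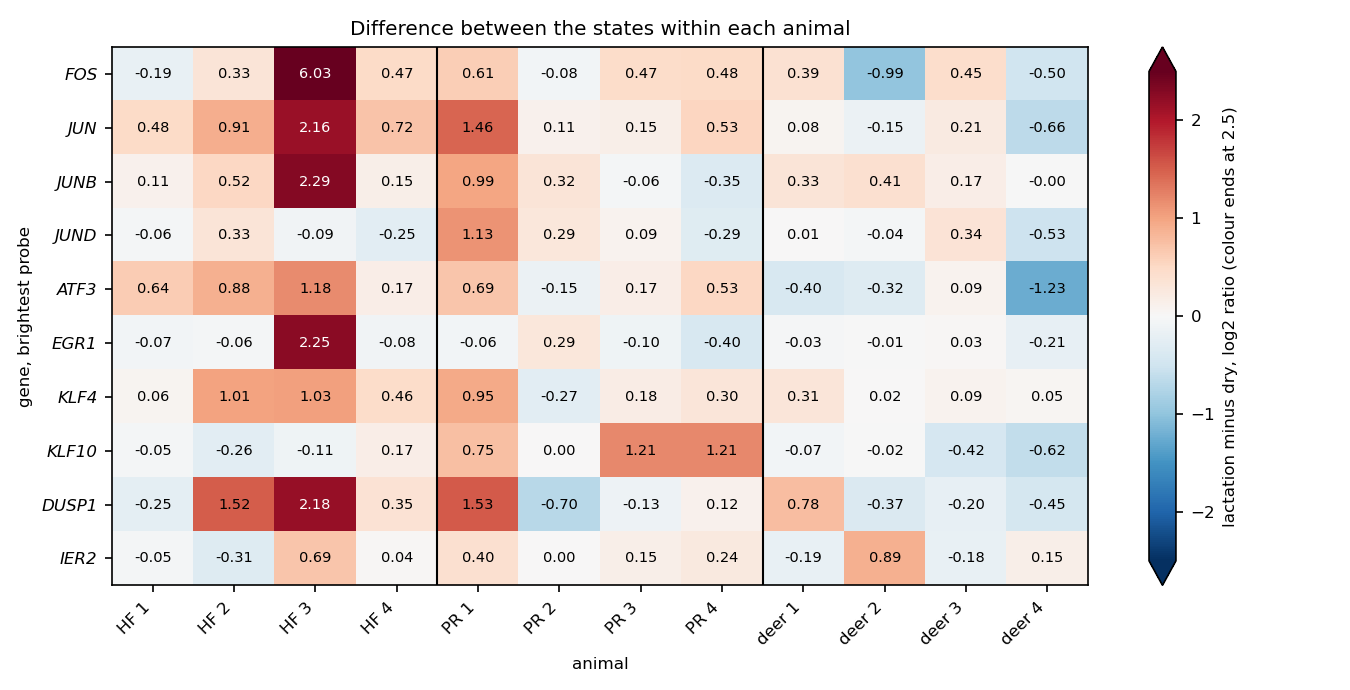
Difference between peak lactation and dry period in log2 ratio (colour and printed value) for the brightest probe of each gene (rows) in the 12 animals (columns); the colour ends at 2.5 while FOS in HF animal 3 is 6.03. HF animal 3 is high for 8 of the 10 genes, and JUN is above 0 in all 4 HF and all 4 PR animals.

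In HF cattle as a group, JUN and ATF3 were the members whose lactation samples all lay above the dry samples. JUN, the main partner of FOS, had log2 ratios of -0.59, -0.62, -0.35 and -0.50 in the dry replicates and -0.11, 0.29, 1.82 and 0.22 in lactation. The difference was 1.07 ± 0.30 (SE, limma, n = 4 against 4), and 1.03 and 1.05 at the other JUN probes. ATF3, a stress-induced bZIP repressor, had -0.44, -0.14, -0.41 and 0.08 in the dry period and 0.20, 0.74, 0.77 and 0.25 in lactation, a difference of 0.72 ± 0.22. JUN was higher in 4 of 4 animals at each probe, with differences of 0.48, 0.91, 2.16 and 0.72 at the brightest, and ATF3 in 4 of 4. Each of these animal differences lies within 1 slide. With array position as a factor JUN was 0.85 and ATF3 0.39. So 4 of the 19 member probes tested did not overlap in the upward direction, against a background of 3.32% of all 33103 probes. In the downward direction the count was 0, against 3.09%. The 4 are all of the JUN probes and the ATF3 probe. The JUN probes read the same gene on the same arrays and are not separate members.

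None of these differences passed the adjustment over all probes. With limma and Benjamini-Hochberg adjustment, 0 of 19 member probes were called, against 0.00906% of all probes, and the lowest adjusted p among them was 0.294, at a JUN probe. At an unadjusted p under 0.05 there were 9 member probes, and 7.67% of all probes. This count includes HF lactation replicate 3 and several probes of a gene. By the Tukey comparison of the study, unadjusted over probes, 3 member probes passed, against 1.13% of all. The authors' deposited table for HF holds the 3 JUN probes and ATF3 among its 437 probes, with the authors' lactation minus dry differences of 1.09, 1.14 and 1.11 for JUN and 0.80 for ATF3. These deposited values come from the same 8 arrays.

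The other members differed less evenly in HF. KLF4, a zinc finger factor of monocytes and quiescent T cells, differed by 0.64 ± 0.21 and was higher in 4 of 4 animals. Its lactation values were -0.22, 0.47, 0.89 and 0.32 and its dry values -0.29, -0.54, -0.14 and -0.14, so replicate 1 overlapped. FOS differed by 1.66 ± 0.78, DUSP1 by 0.95 ± 0.50, JUNB by 0.77 ± 0.33 and EGR1 by 0.51 ± 0.31. Without HF lactation replicate 3 these fell to 0.24, 0.36, 0.22 and -0.05. JUN without it was 0.65, ATF3 0.62 and KLF4 0.47, with adjusted p of 0.995, 1 and 1. The median over the 10 genes was 0.68 with 8 of 10 higher, beside -0.02 over all genes, and 0.23 without that sample. IER2 differed by 0.09 ± 0.23, JUND by -0.02 ± 0.19 and KLF10 by -0.06 ± 0.21.

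**Figure D4:**
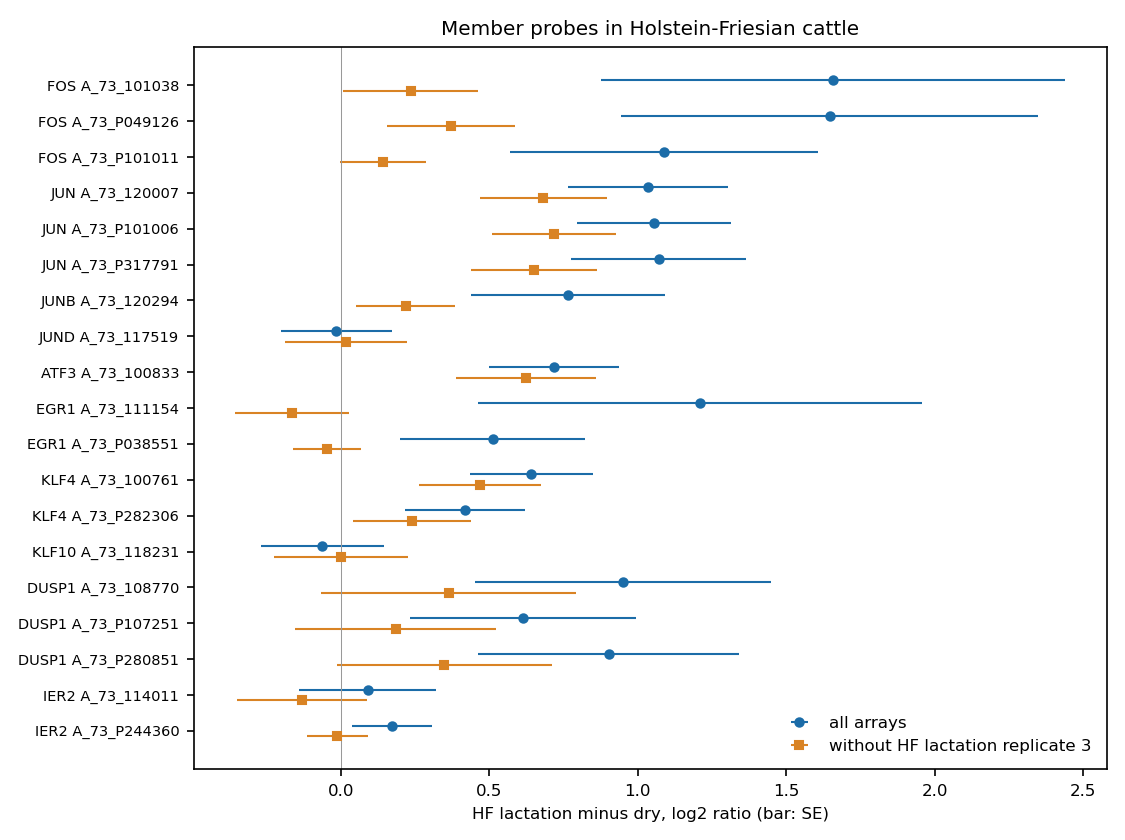
Difference between peak lactation and dry period in HF cattle from limma (x axis, log2 ratio, bars are SE) for the 19 member probes tested (y axis), with all arrays (circles) and without HF lactation replicate 3 (squares). FOS at its brightest probe goes from 1.66 to 0.24 and JUN from 1.07 to 0.65.

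No gene of the pathway lists was called in HF, with 0 of 16 AP-1 and bZIP partners, 0 of 13 EGR, NR4A and KLF relatives, 0 of 33 early response and feedback genes and 0 of 30 upstream factors passed the adjusted threshold. Their median differences were 0.14, 0.02, 0.25 and 0.01. In the feedback list 27 of 33 genes had a positive difference, and 25 of 32 without HF lactation replicate 3, with a median of 0.16. The list genes with the largest even differences were DUSP2 at 1.11, DUSP6 at 0.98 and CEBPD, a bZIP factor of myeloid cells, at 0.74. The lowest were the kinase MAP3K8 at -0.52, KLF11 at -0.36 and KLF3 at -0.32. Leaving out HF lactation replicate 3 moved DUSP2 to 0.53, DUSP6 to 0.59 and KLF3 to -0.17.

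In PR cattle KLF10 had the largest difference among the members. Its log2 ratios were -1.30, -0.62, -1.08 and -0.90 in the dry replicates and -0.56, -0.62, 0.13 and 0.31 in lactation, so only the lactation replicate 2 reached the dry range. The difference was 0.79 ± 0.21 (SE, limma), with differences within animals of 0.75, 0, 1.21 and 1.21. Within slides A, B and C it was 0.75, 0.46 and 1.12 higher at peak lactation. The adjusted p was 0.848, and 0 of 19 member probes were called beside 0% of all 32592 probes tested. At an unadjusted p under 0.05 there was 1 member probe, and 5.56% of all probes. The authors' deposited table for PR holds KLF10 among its 158 probes, with the authors' difference of 0.85. By the Tukey comparison, unadjusted over probes, 1 member probe passed, against 0.405% of all. No member probe had groups that did not overlap, against 0.936% of all probes upward and 1.17% downward.

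The other PR values moved with 1 bright array. JUN differed by 0.56 ± 0.29 at its brightest probe, with values of -1.59, -0.75, -0.86 and -0.61 in the dry period and -0.14, -0.64, -0.71 and -0.08 in lactation. Its other 2 probes gave 0.18 and 0.10, and PR dry replicate 1 read 0.16 and -0.22 there. FOS differed by 0.37 ± 0.78, with dry values of -0.89, -0.50, -0.77 and -0.68 and lactation values of -0.28, -0.57, -0.31 and -0.20, where lactation replicate 2 alone lay within the dry range. The median over the 10 genes was 0.30 with 9 of 10 higher, beside 0.04 over all genes, and 0.07 without PR dry replicate 1, when KLF10 was 0.68 and JUN 0.35. JUND was -0.47 in PR dry replicate 1, where the other 3 dry samples had 0.37, 0.58 and 0.71. The list genes with the largest even differences were ZFP36L1 at 0.55, JDP2 at 0.39 and ELK3 at 0.14, and ATF7 at -0.16. Without PR dry replicate 1 the first 3 were 0.24, 0.18 and 0.0055. In the 4 lists 0 genes were called.

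In deer no member passed the test between the states. ATF3 had the largest difference at -0.47 ± 0.22, with dry values of 2.29, 2.23, 2.61 and 3.20 and lactation values of 1.89, 1.91, 2.70 and 1.96. Lactation replicate 3 lay within the dry range and the other 3 below it. With limma and Benjamini-Hochberg adjustment, 0 of 20 member probes were called, against 0.00599% of all probes, and 1 at an unadjusted p under 0.05, against 9.06%. The median over the 10 genes was -0.06 with 3 of 10 higher, beside 0.02 over all genes. No member probe had groups that did not overlap, against 2.3% of all probes upward and 2.06% downward. FOS differed by -0.16 ± 0.78, JUN by -0.13 ± 0.29 and KLF10 by -0.28 ± 0.21, KLF10 being lower in 4 of 4 animals. The authors' deposited table for deer, with 576 probes, holds 0 members. Among the pathway lists 0 genes were called, and the largest even differences were NFKBIZ at 0.32, MAP3K8 at 0.32, CREM at 0.28, KLF11 at -0.54, PER1 at -0.25 and MEF2A at -0.18.

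Pooling both cattle breeds, 0 of 19 member probes were called, against 0.00299% of all, with 7 at an unadjusted p under 0.05 against 9.03% of all. All 10 genes were positive with a median of 0.48, and 0.29 with 9 of 10 positive without HF lactation replicate 3. Setting the HF effect against that of PR called 0 member probes, against 0% of all, and 3 at an unadjusted p under 0.05, against 2.93% of all. Setting the deer effect against that of both cattle breeds also called 0, against 0%, and 4 at an unadjusted p under 0.05, against 8.41% of all. The breeds and species were therefore not shown to differ in their lactation effect on any member. The unadjusted counts of these comparisons all include HF lactation replicate 3 and several probes of a gene.

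Between the breeds, KLF10 was the member that differed. In the dry period it was 1.03 ± 0.21 higher in HF than in PR (limma, adjusted p = 0.0264), with HF values of 0.19, 0.43, -0.08 and -0.32, all above the PR values of -1.30, -0.62, -1.08 and -0.90. It was the 1 member probe of 19 called, against 2.61% of all probes. Leaving out PR dry replicate 1, the bright array, gave 0.92 with an adjusted p of 0.0543, and leaving out each of HF dry replicates 2 and 3 and PR dry replicates 3 and 4 also ended the call. Over 21 alternatives the adjusted p ran from 0.00266 to 0.49, and the call was lost in 8. At peak lactation 0 of 19 member probes were called between the breeds, against 0%, with 9 at an unadjusted p under 0.05 against 14.2% of all. JUND was at -0.62 there (limma, adjusted p = 0.14). Without PR dry replicate 1, which enters this comparison only through the pooled spread, JUND was called at the same difference, with an adjusted p of 0.0333.

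Deer differed from cattle at many probes, members included. In dry animals 9 of 20 member probes were called, 5 higher and 4 lower, against 56.7% of all probes, and at peak lactation 9 of 19, 2 higher and 7 lower, against 48.6%. The array probes were designed on cattle sequence, so a probe's fit to the deer transcript and the deer level cannot be told apart. ATF3 was higher in deer by 2.84 ± 0.19 in the dry period and 1.86 ± 0.19 in lactation (limma, adjusted p = 6.37e-11 and 5.09e-08), with the lowest deer value of 1.89 above the highest cattle value of 0.77. DUSP1 was higher by 1.57 ± 0.43 in the dry period (adjusted p = 0.00372), and its other 2 probes by 1.5 and 1.17. At peak lactation the 3 DUSP1 probes were 0.94, 0.98 and 0.70 higher, and 1 of them was called. KLF10 was 0.70 ± 0.18 higher in the dry period (adjusted p = 0.00228). That call was lost with array position as a factor, at 0.49 with an adjusted p of 0.119, in 1 of 25 alternatives.

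The lower members in deer were JUNB, JUN, KLF4 and, at its 3′ probe only, IER2. JUNB differed from cattle by -1.88 in the dry period, where deer had -2.24, -2.34, -2.28 and -2.02, and by -2.15 at peak lactation, where they had -1.92, -1.93, -2.11 and -2.02. The 3 JUN probes differed from cattle by -0.09, -1.28 and -0.28 from 5′ to 3′ in the dry period and by -0.75, -1.94 and -1.22 at peak lactation. The middle probe was called in both states and the other 2 at peak lactation only. KLF4 was lower at its dimmer probe in both states, with differences of -0.75 and -0.55. At its brightest probe it was lower at peak lactation, with a difference of -0.61. The peak lactation call of the brightest KLF4 probe was lost with median centring and with Cy5 alone, and that of the brightest JUN probe with Cy5 alone, with adjusted p up to 0.507 and 0.0816.

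The 2 IER2 probes did not give the same picture. At the 3′ probe shown above with AATAAA, deer values were -4.98, -5.03, -5.11 and -5.02 in dry animals and -5.17, -4.15, -5.29 and -4.87 in lactating ones. The Cy5 intensity there was 413 to 483 in deer and 10470 to 40497 in cattle, while the Cy3 reference was 6011 to 9904 over all arrays. The difference from cattle was -5.07 ± 0.20 and -5.05 ± 0.20 (limma, adjusted p = 1.61e-14 and 2.12e-14). At the 5′ probe it was 0.24 ± 0.12 and 0.11 ± 0.12, with adjusted p of 0.0879 and 0.465. Without HF lactation replicate 3 the dry difference at the 5′ probe was called, at an adjusted p of 0.0182.

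HF lactation replicate 3 widened the model's spread for FOS and EGR1 in every comparison. With it, FOS was 1.16 ± 0.68 higher in deer than in cattle in the dry period (limma, adjusted p = 0.152), a comparison that sample is not part of. Without it the same difference had an adjusted p of 1.56e-05, and that of EGR1, 0.41 in both, went from 0.206 to 0.000582. The array was picked for its high values at most members, FOS and EGR1 included. The adjusted p-values without it, here and for IER2 above, are therefore not independent of that choice. At peak lactation FOS was at -0.02 ± 0.68 with it and at 0.70 without it, the latter with an adjusted p of 0.00415. DUSP1 at peak lactation went from 0.94 with an adjusted p of 0.0782 to 1.23 with an adjusted p of 0.00683 (limma). The DUSP1 probe A_73_P280851 and, in the dry period, the FOS probe A_73_P049126 were also called without HF lactation replicate 3. Without that array 16188 of all 34008 probes were called at peak lactation. The FOS and EGR1 differences above are those of the brightest probes. In the dry period the deer, HF and PR means at FOS A_73_P049126 were 0.24, -0.47 and -0.13. At FOS A_73_P101011 they were -0.02, -0.28 and -0.10. At EGR1 A_73_111154 they were 0.38, 0.25 and 0.21. At EGR1 A_73_P259551, near background, they were -0.13, -0.05 and 0.05.

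**Figure D5:**
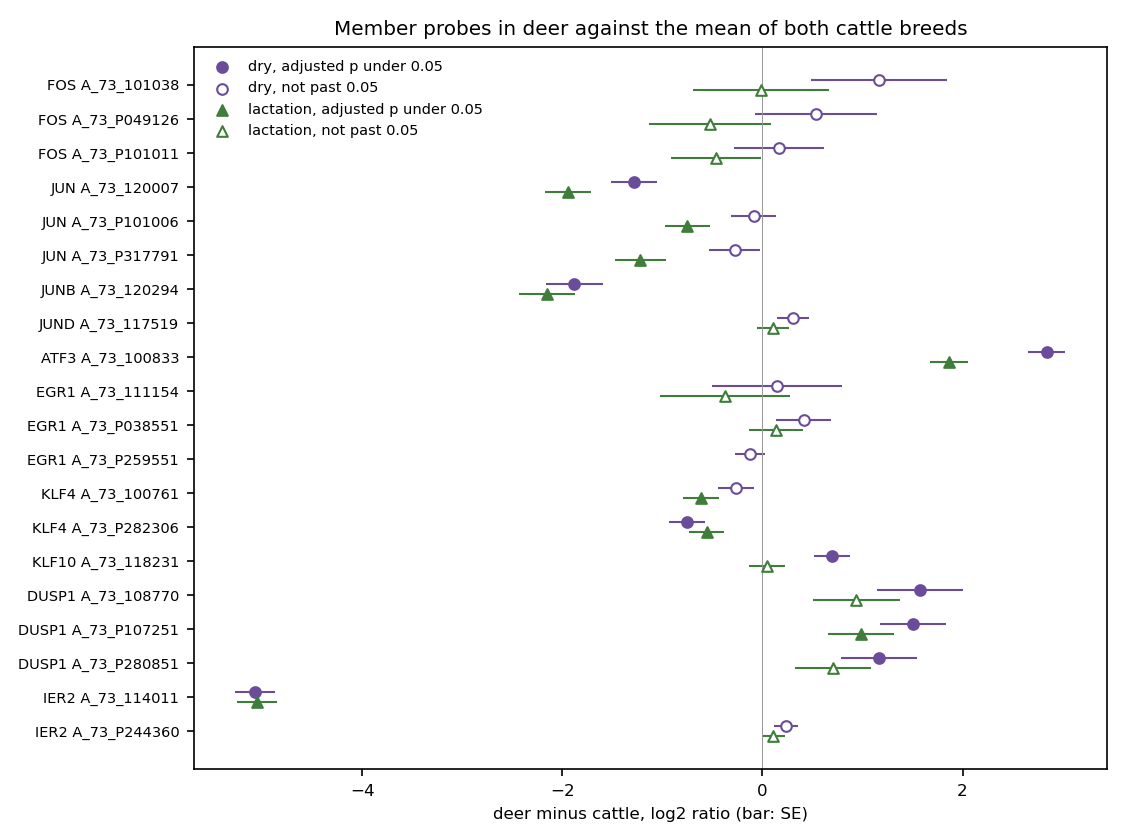
Difference of deer from the mean of both cattle breeds (x axis, log2 ratio, bars are SE) for the member probes (y axis), dry (circles) and lactating (triangles), filled where the limma adjusted p was under 0.05. The 2 IER2 probes lie at -5.07 and 0.24 in the dry period.

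The levels of the members ordered differently by group. For FOS the group means ran from -0.71 ± 0.17 (SD, n = 4) in PR dry and -0.34 ± 0.16 in PR lactation over -0.16 ± 0.14 in HF dry to 0.56 ± 0.41 and 0.73 ± 0.53 in deer lactation and dry, with HF lactation at 1.5 ± 2.85. Each group overlapped the next in that order, except that deer lactation lay wholly above HF dry, and HF lactation overlapped every group but PR dry. For JUN the order was deer lactation at -1.14 ± 0.20, deer dry at -1.01 ± 0.33, PR dry at -0.95 ± 0.44, HF dry at -0.51 ± 0.12, PR lactation at -0.39 ± 0.33 and HF lactation at 0.56 ± 0.86. Each of these groups overlapped the next in that order. ATF3 ran from -0.29 ± 0.37 in PR dry and -0.23 ± 0.25 in HF dry through 0.02 ± 0.12 and 0.49 ± 0.31 in PR and HF lactation to 2.12 ± 0.39 in deer lactation and 2.58 ± 0.44 in deer dry. KLF10 was lowest in PR dry at -0.98 ± 0.29, where it overlapped PR lactation alone, and the other 5 groups, from -0.18 ± 0.47 in PR lactation to 0.24 ± 0.28 in deer dry, overlapped. DUSP1 ran from -0.43 ± 0.75 in PR dry to 1.40 ± 0.67 in deer dry, with HF lactation at 1.02 ± 1.31.

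Across the 16 cattle arrays, after group means were removed, the members tracked each other in part. The median Pearson correlation over the 45 pairs of genes was 0.55, with 23 pairs over 0.5 and 7 below 0, and 0.46 over the 15 arrays without HF lactation replicate 3. These arrays share a reference, come from 8 animals sampled in both states, and share slides in both breeds. The genes outside the members most like their mean over these 16 arrays were TC455679, an array cluster without a gene symbol, with r = 0.94, the neutrophil granule gene LCN2 with 0.92, the phosphatase DUSP6 with 0.91, the small GTPase RHOB with 0.91 and the cluster TC454811 with 0.90. Without HF lactation replicate 3 these were 0.88, 0.53, 0.86, 0.83 and 0.78, so the likeness of LCN2 rested on that sample more than the others did.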

How the data were processed

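RNA from 24 blood samples was measured on 24 two-colour Agilent arrays. The deposited spot files give, per the file headers, each spot's mean brightness (intensity) and local background in both channels, a log10 ratio of processed signals, and yes-or-no calls per spot. The submitters' processing notes name Feature Extraction 10.7.3.1, the file headers 10.10.1.1. For the probes they selected, the authors also gave normalized log2 values in deposited tables, and the normalization steps are not given in the sources used here.

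Intensities were corrected by normexp with an offset of 50 and the log2 ratio was adjusted by loess within each array, leaving out 1417 control spots (limma 3.58.1, statmod 1.5.0, data.table version 1.17.8, R 4.3.3; figures with matplotlib 3.10.9 in Python 3.11.15). Testing required, in 1 group or more of a contrast, a Cy5 signal called well above background on 3 or more of the 4 arrays. The limma model had 6 group means, and p-values were adjusted by Benjamini-Hochberg over all probes tested, with a threshold of 0.05. On simulated data of the Holstein-Friesian comparison with 33103 probes, 88 of 100 probes changed by 1 on the log2 scale and 99 of 100 changed by 2 were recovered, with 12 false calls. The simulation drew independent normal errors without an outlying array, and changed many more probes than the 3 called in the real comparison. These shares are therefore not the power for the members. A gene is represented by its probe of highest mean intensity over the 24 arrays. Named list genes are, in each state comparison, up to 3 with the largest rise and up to 3 with the largest fall among those with the same sign in 4 of 4 animals, plus any called. The members and lists were chosen with earlier results of these data known. The animal pairing comes from the series text and the subject numbers. After group means were removed, an animal's own arrays correlated above 0.1 in 4 of 4 Holstein-Friesian, 2 of 4 Polish Red and 4 of 4 deer. The number of arrays limits the precision. Alternatives were the background correction, the normalization, the filter, blocks, weights and leaving out arrays.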

Additional observations from a re-analysis of the deposited data

Results flagged for a closer look

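In 15 of the 120 groups of 4 values (20 probes in 6 groups), 1 sample stood farther from the others than Dixon's 95% limit allows, where chance gives about 1 in 20 groups. HF lactation replicate 3 was the sample in 8 of them. It was at 3.65, 5.01 and 5.77 for the 3 FOS probes, 2.10 and 5.58 for EGR1 A_73_P038551 and A_73_111154, 1.30 and 1.18 for JUN A_73_P101006 and A_73_120007, and 2.11 for JUNB. Deer dry replicate 3 was high for DUSP1, at 1.79 and 2.39 at 2 of its probes. Deer lactation replicate 3 was high for ATF3 at 2.70 and for JUN A_73_P317791 at -0.83. PR dry replicate 2 was low for FOS A_73_P101011 at -0.45, PR lactation replicate 1 low for IER2 A_73_114011 at -0.38, and PR lactation replicate 4 low for JUND at 0.42. The causes were not tested.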

How the results depend on the processing

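Of the HF values, JUN, ATF3, FOS, JUNB, DUSP1 and KLF4 kept their direction under every alternative run. No member probe was called in a state comparison of HF or PR except by the Tukey comparison unadjusted over probes. That passed 3 in HF, all of JUN, and 1 in PR. With the animal as a replicate block no member call in the comparisons it can estimate changed, and JUN in HF was 1.07 with an adjusted p of 0.172 (limma). The median of the 10 members in HF was 0.094 without both arrays of HF animals 2 and 3 and 0.227 to 0.825 when each array was left out in turn, lowest without HF lactation replicate 3. The PR median was 0.719 with Cy5 alone. Between breeds in the dry period, 2 member probes were called with median centring or array weights, and 0 with the arrays of the contrast alone, without HF animals 2 and 3, or with Cy5 alone. Over all 32926 probes, median centring and array weights called 5990 and 4916. The other settings called 0, 2 and 0 of all probes. Leaving out each array in this comparison gave 0 to 1 member probes. At peak lactation 1 was called between breeds with the arrays of the contrast alone and with array weights, beside 251 and 812 of all 32950 probes. Array weights also called 2 in the deer state comparison, beside 6316 of all 33391 probes. In the deer and cattle effect comparison they called 2, beside 3616 of all 35433. With Cy5 alone 5 were called between deer and cattle at peak lactation, beside 14606 of all 34265.

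Small differences that were not called changed sign. In the deer state comparison these were IER2 and KLF4 at -0.082 and -0.018 without background subtraction and at -0.097 and -0.029 with the deposited log ratio. With slide as a fixed factor JUND was 0.086, EGR1 0.148 and KLF4 -0.18, with array position DUSP1 was 0.002, with Cy5 alone IER2 was -0.05 and JUNB -0.098, and with the mean over probes EGR1 was 0.011. In HF, IER2 was -0.193 with array position, and IER2, KLF10 and EGR1 were -0.007, 0.06 and -0.075 without animals 2 and 3. In PR, array weights gave JUND 0, JUNB -0.053 and DUSP1 -0.058, and Cy5 alone gave EGR1 0.01. FOS between deer and cattle at peak lactation was 0.019 with an offset of 10, 0.202 with the deposited log ratio, 0.243 with median centring, 0.062 with array position, 0.032 with array weights, 0.177 with Cy5 alone and 0.741 without HF animals 2 and 3, called in the last (limma, adjusted p = 0.008). Leaving out each array gave it -0.299 to 0.696. The same gave, in HF, JUND -0.12 to 0.056, IER2 -0.133 to 0.224, KLF10 -0.188 to 0.063 and EGR1 -0.047 to 0.718, in PR, IER2 -0.001 to 0.329, DUSP1 -0.161 to 0.402 and EGR1 -0.137 to 0.034, and in deer, DUSP1 -0.342 to 0.271, JUND -0.142 to 0.075, JUN -0.238 to 0.025 and IER2 -0.077 to 0.305. The causes were not tested.

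Over all probes the calls ranged over the alternatives from 0 to 22 in HF (3 as reported), 0 to 6316 in deer (2), 0 to 20 in cattle (1), 0 to 3616 for the deer and cattle effect (0), 0 to 5990 between breeds in the dry period (861) and 0 to 812 at peak lactation (0). The highest deer counts came with array weights. EGR1 A_73_P259551, near background, limits what can be said of the 5′ side of EGR1.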
